A study of Drosophila melanogaster with 14 samples.

Results

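The sites described here are regions of the Drosophila melanogaster genome where peaks of Yorkie (Yki) and GAGA factor (GAF) in wing imaginal discs overlapped. They carried no peak of either protein in embryos. Touching peaks of 4 deposited lists, Yki and GAF in each tissue, were merged wherever they shared at least 1 bp, which gave 11285 sites. A joint wing-disc-only site was a merged site that held a peak of both wing disc lists and of neither embryo list. There were 806 of them, 7.14% of all merged sites and 25.8% of the 3130 sites that held both wing disc lists. The sites were chosen by the presence and absence of peaks in these 4 lists, so their wing disc scores, widths and lack of embryo peaks are given as descriptions without a test.

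All libraries came from the Iso1 strain, the strain behind the reference genome, with no other genotype or treatment. Chromatin immunoprecipitation followed by sequencing (ChIP-seq), which recovers DNA bound by a protein with an antibody, was done on wing discs of wandering L3 larvae with antibodies to Yki (1 library) and to GAF, listed as anti-Trl (2 libraries), next to 2 input libraries. Whole embryos of 8 to 16 hours gave 3 Yki, 3 GAF, 2 H3K4me3 and 1 input library. Each antibody and tissue has a single peak list, so no value below has a replicate, the spread between libraries cannot be measured, and the depth behind the lists is unknown. Intervals and p-values treat sites as independent and cover counting error alone. Tissue labels could not be checked against marker genes, because the data used here are peak positions.

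Yki is the nuclear effector of Hippo signalling, a cascade that restrains growth. When Hippo signalling is low, Yki enters the nucleus and is brought to DNA by partners such as Scalloped, the main one in the wing disc, to switch on genes for growth and survival. GAF, the product of Trithorax-like, recognises GA repeats and keeps chromatin accessible at promoters and other regulatory DNA. Trimethylation of histone H3 at lysine 4 (H3K4me3) is a mark of active promoters. The wing disc is an epithelial sac that grows in the larva and later forms the wing and part of the thorax. The lists therefore allow sites that held both proteins in the disc lists alone to be set against those that both tissues share, and against disc sites with a single protein. Which genes the sites lie in, and their DNA sequence, were not analysed here.

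Joint wing-disc-only sites were mostly simple. Of the 806, 719 (89.2%, Wilson 95% interval 86.9 to 91.2) held 1 Yki and 1 GAF peak, 70 held more than 1 Yki peak and 23 more than 1 GAF peak, with 6 in both counts. Together they took up 878 of the 6491 Yki wing disc peaks (13.5%) and 831 of the 6328 GAF wing disc peaks (13.1%). Their width had a median of 697.5 bp, with quartiles at 495 and 922 bp and a range of 239 to 4065 bp. Sites with Yki in wing discs alone (Yki-alone sites) had a median of 318 bp, those with GAF in wing discs alone (GAF-alone sites) 340 bp, and those with both wing disc lists and at least 1 embryo list (embryo-shared sites) 1621 bp. Merging makes sites of several lists wider, so this order partly follows from how sites were built.

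Within a joint site the Yki and GAF peaks overlapped closely. Sites were built from peaks that share at least 1 bp, so this closeness follows in part from the rule. The same distances were not taken for embryo-shared sites. The midpoints of the best-scoring Yki and GAF peaks were a median of 127 bp apart (quartiles 53 and 223 bp), and in 777 of 806 sites (96.4%) they lay within 500 bp. The shared stretch covered a median of 98.4% of the narrower of these peaks, although it fell as low as 2% in the least overlapping site. Among the 719 sites with 1 peak of each, the Yki peak lay wholly inside the GAF peak in 204 (28.4%), the GAF peak lay wholly inside the Yki peak in 127 (17.7%), and the peaks overlapped in part in 388 (54.0%). The GAF peak was somewhat more often the wider: the Yki peak was the narrower in 416 of these 719 sites (57.9%, 54.2 to 61.4).

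The scores placed these sites low in the GAF list and near the middle of the Yki list. The score was deposited by the authors without a stated scale, so it is used only to rank peaks inside its own list. The best Yki peak of a joint site had a median score of 13.23 (quartiles 10.19 and 17.44, range 6.28 to 52.47), where the whole Yki wing disc list had a median of 13.63 and a maximum of 115.33. The best GAF peak had a median of 19.51 (quartiles 12.14 and 35.7, range 5.96 to 297.64), where the whole GAF wing disc list had a median of 34.7 and a maximum of 931.01. In the top quartile of the GAF list stood 4 of the 806 sites (0.496%), against 144 (17.9%) in the top quartile of the Yki list. Sites that held both wing disc lists and an embryo list had medians of 19.71 for Yki and 214.62 for GAF. Those with a single wing disc protein had medians of 10.99 (Yki alone) and 14.05 (GAF alone), so joint sites stood between the single-protein and the embryo-shared sites.

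The Yki and GAF scores were weakly related among the joint sites. Spearman's rho between both scores was 0.12 over the 806 sites, and 0.45 over the 2324 sites with both wing disc lists and an embryo list. Either score was more closely tied to width: rho was 0.40 for Yki and 0.54 for GAF over the joint sites. These correlations are across sites of the same 2 lists, which share peak calling and position, and are descriptions.

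**Figure D1:**
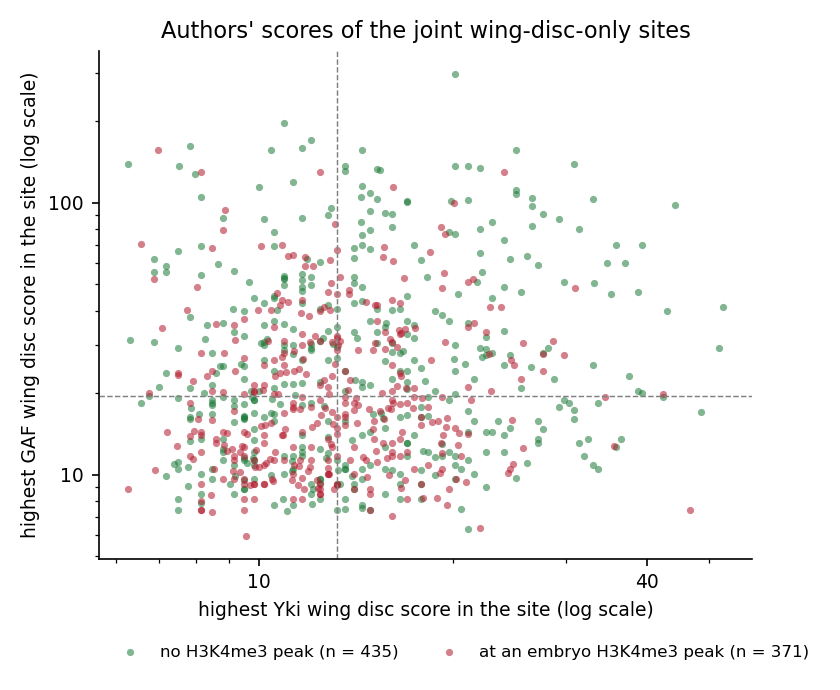
Highest Yki score (x axis, log scale) and highest GAF score (y axis, log scale) of each of the 806 joint wing-disc-only sites, as deposited by the authors; green points are the 435 sites without an embryo H3K4me3 peak, red points the 371 sites at one, and dashed lines mark the medians of 13.23 and 19.51. The scores are weakly related (rho 0.12), and of the 207 points above both lines 70 are red.

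Embryo peaks were often in the neighbourhood of a joint site, though not on it. The gap to the nearest embryo peak of either protein had a median of 4658 bp (quartiles 1861 and 10985 bp), and 584 of 806 sites (72.5%, 69.3 to 75.4) had an embryo peak within 10 kb. Only 6 lay farther than 50 kb from any embryo peak. The nearest GAF embryo peak was a median of 5971.5 bp away and the nearest Yki embryo peak 9969.5 bp, and 659 sites (81.8%) were nearer to GAF than to Yki. The GAF embryo list is also the longer, with 6470 peaks against 3749 for Yki. To the nearest embryo peak of either protein, the median gap was 4926 bp for sites with Yki in wing discs alone. It was 3904 bp for those with GAF in wing discs alone, so nearness to embryo peaks was not particular to joint sites. Shares within 10 kb were not counted for those classes.

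**Figure D2:**
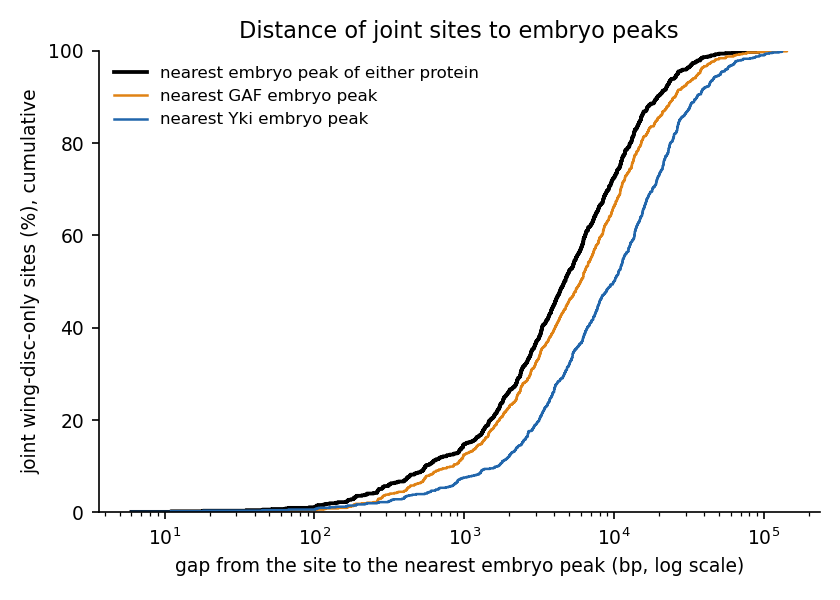
Cumulative share (y axis, %) of the 806 joint wing-disc-only sites by the gap in bp (x axis, log scale) to the nearest embryo peak of either protein (black), of GAF (orange) and of Yki (blue). The black line passes 14.8% at 1000 bp, 52.1% at 5000 bp and 72.5% at 10000 bp, and the GAF line lies left of the Yki line over most of the range, with medians of 5971.5 and 9969.5 bp.

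Few sites sat at the edge of the rule. Just inside it were 5 sites with an embryo peak at most 50 bp away, the closest with a gap of 6 bp to a Yki embryo peak, on X from 8292717 to 8293560 in dm3. Their Yki scores ran from 10.19 to 21.13 and their GAF scores from 8.49 to 21.36, and all 5 lay at an embryo H3K4me3 peak. Just outside it was a single site, on 2R from 13156705 to 13157954, where an embryo GAF peak shared at most 21 bp with a wing disc peak; its scores were 7.82 for Yki and 22.44 for GAF, and it had no H3K4me3. A further 11 sites were left out although they held a touching Yki and GAF wing disc pair free of embryo peaks, because a neighbouring peak chained them to an embryo peak.

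Somewhat more joint sites lay off embryo H3K4me3 than on it. An H3K4me3 peak of the embryo list shared at least 1 bp with 371 of the 806 (46.0%, 42.6 to 49.5), where the share over all merged sites was 36.0%. In 276 of the 371 (74.4%) the midpoint of the site lay under the mark, and 142 (38.3%) lay under it from end to end. The H3K4me3 peaks touched were wide, with a median of 2159 bp over 419 peaks, against 1262 bp over all 6499; a wide peak is also touched more easily. Peaks of the mark touched by Yki-alone and GAF-alone sites were of similar width, with medians of 2092 and 2212 bp. In 54 of the 371 (14.6%, 11.3 to 18.5) the same H3K4me3 peak also held an embryo Yki or GAF peak, and this was so at 17.0% (14.9 to 19.3) of the Yki-alone and 20.5% (16.5 to 25.1) of the GAF-alone sites with the mark. Over the whole H3K4me3 list, 33.4% of peaks held an embryo Yki or GAF peak. That share counts peaks of the mark, not sites. Joint and single-protein sites were also chosen to hold no embryo peak, so their lower shares follow in part from the rule. Of the 435 joint sites without the mark, 46 (10.6%) had an H3K4me3 peak within 1000 bp and 203 (46.7%) had none within 10 kb. The mark was mapped in embryos alone among the files used, so these values place disc binding on an embryo map.

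In overlap with H3K4me3 the joint sites lay between the 2 kinds of single-protein disc site. They overlapped it less often than sites with Yki in wing discs alone, of which 1160 of 1975 did (58.7%, 56.5 to 60.9), a difference of -12.7 percentage points (Newcombe 95% interval -16.7 to -8.62). In the two-sided Fisher's exact test its p, adjusted over 6 contrasts, was 2.01e-09. They overlapped it more often than sites with GAF in wing discs alone, of which 332 of 1309 did (25.4%, 23.1 to 27.8), a difference of 20.7 points (16.5 to 24.8; Fisher's exact test, adjusted p = 1.64e-21). And they overlapped it less often than sites with both wing disc lists and an embryo list, at 1418 of 2324 (61.0%, 59.0 to 63.0), a difference of -15.0 points (-18.9 to -11.0; Fisher's exact test, adjusted p = 5.04e-13). As odds ratios these were 0.599 (0.508 to 0.707), 2.51 (2.08 to 3.02) and 0.545 (0.464 to 0.641). Joint and embryo-shared sites are told apart by embryo peaks, and the mark was also mapped in embryos. The last contrast is therefore not independent of the rule. Over quartiles of site width the odds ratios were 0.600, 2.22 and 0.524. The last contrast depended on how overlap was counted: with the site midpoint required to lie inside the mark, the shares were 34.2% of joint sites and 36.0% of embryo-shared sites (odds ratio 0.927 with a range of 0.783 to 1.10, adjusted p by Fisher's exact test 0.472). The contrast with GAF-alone sites turned when each wing disc list was restricted to the 50% of its peaks with the highest scores: 24.1% of the 112 joint sites left and 36.9% of 244 GAF-alone sites overlapped H3K4me3 (odds ratio 0.544 with a range of 0.328 to 0.901, adjusted p by Fisher's exact test 0.0415). In that setting the odds ratio was 0.287 (0.182 to 0.453) against Yki-alone and 0.181 (0.116 to 0.282) against embryo-shared sites. Within quartiles of the GAF score, over all joint sites, the odds ratio was 0.339 (0.273 to 0.422) against embryo-shared and 2.52 (2.09 to 3.05) against GAF-alone sites. Within quartiles of the Yki score it was 0.673 (0.569 to 0.796) against embryo-shared and 0.620 (0.524 to 0.734) against Yki-alone sites. GAF scores of joint and embryo-shared sites overlapped little, with an upper quartile of 35.7 in joint and a lower quartile of 73.3 in embryo-shared sites.

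**Figure D3:**
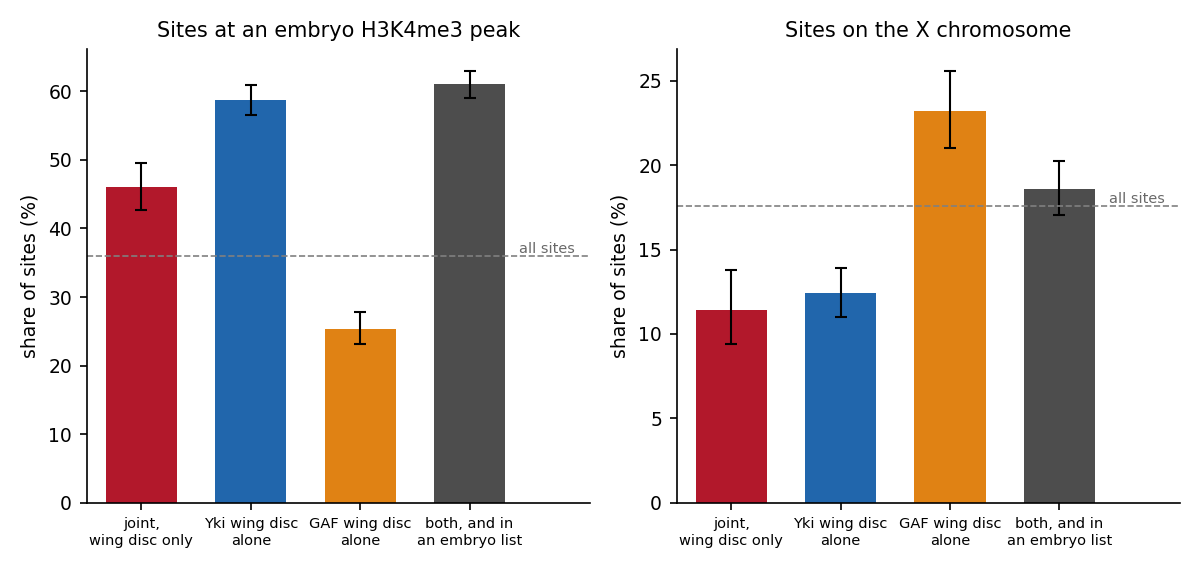
Share of sites (y axis, %) at an embryo H3K4me3 peak (left) and on the X chromosome (right), for the 806 joint wing-disc-only sites (red), 1975 with Yki in wing discs alone (blue), 1309 with GAF in wing discs alone (orange) and 2324 with both wing disc lists and an embryo list (dark grey); error bars are Wilson 95% intervals and dashed lines the share over all 11285 sites. Joint sites stand at 46.0% for H3K4me3, between the single-protein classes, and at 11.4% for X, close to the 12.4% of Yki-alone sites.

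The best-scoring joint sites overlapped H3K4me3 less often than the other joint sites. Over all merged sites the share was 36.0%, which lies inside the intervals of both top quartiles given here. Along quartiles of the Yki score from low to high, the share at H3K4me3 was 46.1%, 55.0%, 48.9% and 33.7%, with a Wilson interval of 27.5 to 40.5 in the top quartile. Along quartiles of the GAF score it was 51.2%, 53.6%, 48.3% and 31.2% (25.2 to 37.9 in the top quartile). Where both scores were above their medians 70 of 207 sites overlapped the mark (33.8%, 27.7 to 40.5), and where neither was, 121 of 221 did (54.8%, 48.2 to 61.2). Among the 100 joint sites with the best mean rank over both scores 25 overlapped it, among the first 25 only 1, and among the first 10 none. A count of 0 of 10 has a Wilson interval reaching 27.8%.

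This fall with score was set against the other classes in a comparison chosen after the data were seen. Joint and embryo-shared sites are told apart by embryo peaks, and H3K4me3 was also mapped in embryos. Contrasts with embryo-shared sites are therefore not independent of the rule, and how much of them comes from it was not tested. The top quartile of joint sites by Yki score overlapped H3K4me3 in 33.7% of cases, against 50.1% in the rest of the joint sites (odds ratio 0.506, 0.362 to 0.707). For sites with both wing disc lists and an embryo list the corresponding shares were 70.9% and 57.8% (1.78, 1.45 to 2.18), and for Yki-alone sites 55.7% and 59.8% (0.846, 0.688 to 1.04). The ratio of odds ratios, joint over other class, was 0.285 (Wald 95% interval 0.193 to 0.421) against embryo-shared sites and 0.598 (0.404 to 0.886) against Yki-alone sites. Both intervals lie below 1, the value for an equal change with score. By GAF score the top quartile of joint sites stood at 31.2% and the rest at 51.0% (0.436, 0.311 to 0.611). In GAF-alone sites the order was the opposite, with 33.1% in the top quartile and 22.8% in the rest, and the ratio of odds ratios was 0.259 (0.168 to 0.401). Against embryo-shared sites, at 63.6% and 60.2%, it was 0.377 (0.256 to 0.557). The share in embryo-shared sites did not move evenly with GAF score. From the lowest quartile to the highest it was 71.4%, 54.6%, 54.5% and 63.6%. When the top 50% by GAF score was set against the rest, embryo-shared sites stood at 59.0% and 63.0%. With that split the ratio of odds ratios was 0.709 (0.512 to 0.981) against them and 0.432 (0.297 to 0.629) against GAF-alone sites. By Yki score it was 0.307 against embryo-shared and 0.610 against Yki-alone sites. The contrasts of the top quartile also depended on how overlap was counted. With the site midpoint required to lie inside H3K4me3, the joint sites still stood lower in the top quartile, at 26.6% against 36.7% in the rest by Yki score and at 16.3% against 40.2% by GAF score. The rise of the embryo-shared sites with the Yki score was gone (36.0% in the top quartile and 36.0% in the rest, odds ratio 0.999, 0.821 to 1.22), and by GAF score they fell too, with 24.5% in the top quartile and 39.8% in the rest (0.492, 0.398 to 0.608). The opposite order of the GAF-alone sites was gone as well (16.3% and 16.9%, 0.955, 0.681 to 1.34). Under that definition the ratios of odds ratios by Yki score were 0.626 (0.417 to 0.939) against embryo-shared and 0.821 (0.545 to 1.24) against Yki-alone sites, the last with an interval that includes 1. By GAF score they were 0.304 (0.179 to 0.515) against GAF-alone and 0.589 (0.373 to 0.933) against embryo-shared sites.

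Site width moved with score and with the mark. Joint sites in the top quartile of the Yki score had a median width of 893 bp, the rest 623 bp, and for the GAF score these medians were 963 and 606 bp. The share at H3K4me3 along quartiles of width, from narrow to wide, was 53.5%, 53.7%, 46.3% and 30.7%. Within quartiles of width the odds ratio of the top score quartile against the rest was 0.632 (0.444 to 0.900) for Yki and 0.571 (0.393 to 0.830) for GAF. Quartiles differ in score between classes, and above a common lower bound of score the order was partly kept. Scores were not matched beyond that bound. GAF scores reached 297.64 in joint, 206.07 in GAF-alone and 931.01 in embryo-shared sites. With a Yki score of at least 17.47, 33.7% of 199 joint sites overlapped H3K4me3, against 52.7% of 224 Yki-alone sites (46.2 to 59.1) and 68.5% of 1359 embryo-shared sites (66.0 to 70.9). With a GAF score of at least 35.76, 31.2% of 202 joint sites did, against 33.8% of 133 GAF-alone sites (26.3 to 42.2) and 58.3% of 1978 embryo-shared sites (56.2 to 60.5). At these GAF scores the intervals of joint and GAF-alone sites overlap.

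**Figure D4:**
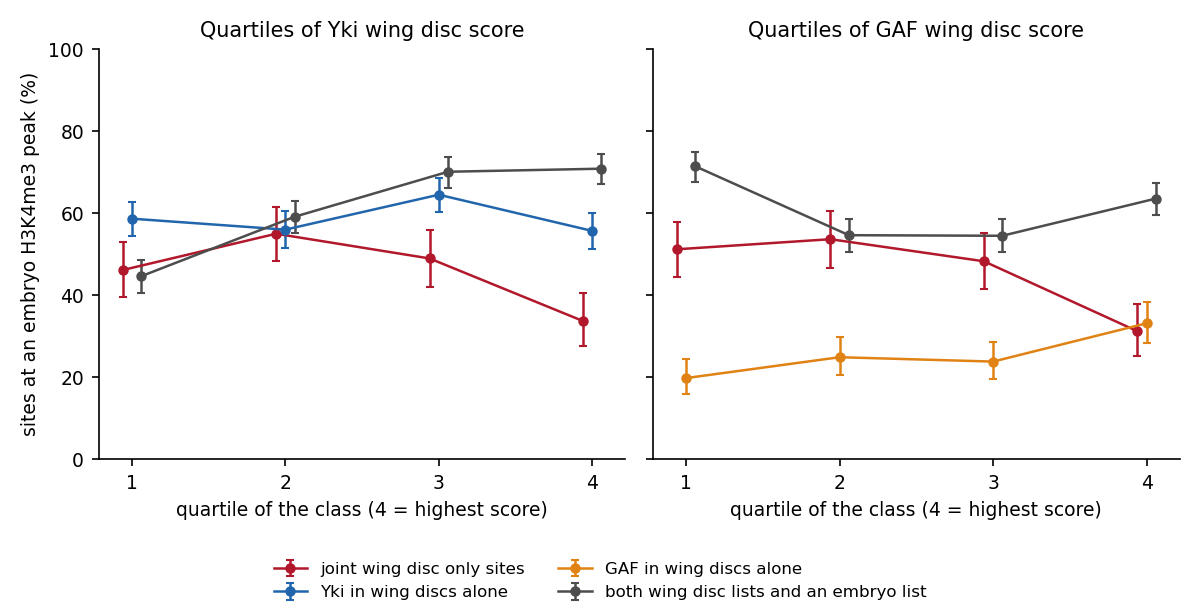
Share of sites at an embryo H3K4me3 peak (y axis, %) by quartile of the highest Yki score (left) or GAF score (right) in the site, taken within each class (x axis, 4 is the highest); red is the joint wing-disc-only sites, blue Yki-alone, orange GAF-alone and dark grey those with both wing disc lists and an embryo list, with Wilson 95% intervals. The red lines drop in the top quartile, to 33.7% and 31.2%, while the dark grey line for Yki reaches 70.9%; overlap here means at least 1 bp, and with site midpoints inside the mark the embryo-shared sites stood at 36.0% in the top Yki quartile and 36.0% in the rest.

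How the Yki and GAF peaks lay within a site also went with the mark. H3K4me3 was found at 73 of the 204 sites with the Yki peak inside the GAF peak (35.8%, 29.5 to 42.6), at 70 of the 127 with GAF inside Yki (55.1%, 46.4 to 63.5) and at 51.8% of the 388 with a partial overlap (46.8 to 56.7). It was found at 27 of the 87 sites with more than 1 peak of a protein (31.0%, 22.3 to 41.4). Width and score were not held fixed between these arrangements, so a separate tie to the mark was not tested. By distance to embryo peaks, the share was 45.4% of the sites within 1000 bp of an embryo peak, 46.2% from there to 5000 bp, 52.4% up to 10000 bp and 41.4% of the 222 sites beyond.

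Joint sites were less frequent on the X chromosome than GAF-alone and embryo-shared sites. X held 92 of the 806 (11.4%, 9.40 to 13.8), where the share over all merged sites was 17.6%. Sites with GAF in wing discs alone lay there in 304 of 1309 cases (23.2%, 21.0 to 25.6), so joint sites stood 11.8 points lower (difference -11.8, -14.9 to -8.56; Fisher's exact test, adjusted p = 8.50e-12). Sites with both wing disc lists and an embryo list lay there in 432 of 2324 cases (18.6%, 17.1 to 20.2), a difference of -7.17 points (-9.77 to -4.34; Fisher's exact test, adjusted p = 1.64e-06). No difference was detected from sites with Yki in wing discs alone, at 245 of 1975 (12.4%, 11.0 to 13.9): the difference was -0.991 points with an interval of -3.52 to 1.76 (Fisher's exact test, adjusted p = 0.482). Both differences that passed the test missed it in the 112 joint sites left when each wing disc list was restricted to its better-scoring 50%, where X held 13.4% of joint, 20.1% of GAF-alone and 17.7% of embryo-shared sites (adjusted p of Fisher's exact test 0.209 and 0.301).

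On 3R lay 28.7% of the joint sites (25.6 to 31.9), against 23.6% of all merged sites. The other large arms held 23.8% against 20.7% on 3L, 18.6% against 19.0% on 2R and 17.2% against 16.4% on 2L. Chromosome 4 held 1 joint site (0.124%, 0.0219 to 0.699), against 131 of all merged sites (1.16%), and the heterochromatin and unplaced scaffolds together held 1, against 177 (1.57%). The shares on these arms and scaffolds were not tested. With the scaffolds left out, 805 of 806 joint and 2321 of 2324 embryo-shared sites remained. Of the single-protein sites, 1963 of 1975 Yki-alone and 1282 of 1309 GAF-alone sites did. A low count on scaffolds was thus not particular to joint sites. Of the X sites, 53 of 92 overlapped H3K4me3 (57.6%, 47.4 to 67.2), and of the others 318 of 714 (44.5%, 40.9 to 48.2). The median scores were 12.1 for Yki and 23.54 for GAF on X, and 13.23 and 19.14 elsewhere. Along the quartiles of the Yki score the share on X was 13.6%, 13.3%, 11.6% and 7.04%, and along those of the GAF score 9.95%, 8.85%, 12.9% and 13.9%, with overlapping Wilson intervals.

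Joint sites often had another disc site as their nearest neighbour and at times lay near each other. Within 10 kb of its midpoint a joint site had a median of 3 other merged sites (range 0 to 14), and 71 of 806 (8.81%) had none. Another joint site lay within that distance of 223 (27.7%, 24.7 to 30.9). These counts were not taken for other classes, so they describe the joint sites alone. The nearest merged site of another class was most often Yki in wing discs alone, in 261 cases (32.4%), a class that makes up 18.8% of those sites. It was GAF in wing discs alone in 161 cases (20.0%, against 12.5%) and a site with both wing disc lists and an embryo list in 199 (24.7%, against 22.2%). Sites of the remaining kinds, 46.5% of the others, were nearest in 185 cases (23.0%). These kinds include sites with a single wing disc list and an embryo list. The nearest site was not taken for other classes either, so these shares may not be particular to joint sites.

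In windows of 100 kb, joint sites were spread thinly with a few dense stretches. Of the 1252 windows that held any merged site, 758 held no joint site, 303 held 1 and 10 held 5 or more. The densest, on 3R from 12000001 to 12100000, held 7 joint sites among 33 merged sites, and 1 of the 7 overlapped H3K4me3. Next came 9 windows with 5 joint sites each. Of these, 3R from 15100001 to 15200000 held 5 of its 13 merged sites as joint sites, none of them at H3K4me3, and 3R from 24900001 to 25000000 held 5 of 12, with 1 at H3K4me3. On 3L the window from 19000001 to 19100000 was of the other kind, with 4 of its 5 joint sites at H3K4me3.

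The 10 joint sites with the best mean rank over both scores all lay off embryo H3K4me3. First was a site on 2L from 15743332 to 15744792, with a Yki peak of score 30.83 inside a GAF peak of score 138.22; its nearest embryo peaks were 281 bp (GAF) and 647 bp (Yki) away. The second, on X from 17464570 to 17465673, scored 44.21 for Yki and 97.99 for GAF and was 7777 bp from an embryo peak. The third, on 2L from 4069095 to 4070414, scored 33.04 and 103.25, with peak midpoints 62.5 bp apart, and stood far from embryo binding, with 23783 bp to the nearest GAF and 38266 bp to the nearest Yki embryo peak. Among these 10 the Yki score ran from 25.04 to 44.21, the GAF score from 69.79 to 155.74, and the gap to the nearest H3K4me3 peak from 2380 to 65721 bp. They lay on 2L (5 sites), X and 3L (2 each) and 3R (1).

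Sites with the highest score for 1 protein ranked from near the top to near the bottom of the joint sites for the other. The 5 with the highest Yki scores ranked between 41 and 796 of 806 by GAF score, and the 5 with the highest GAF scores between 139.5 and 767 by Yki score. The highest Yki score among joint sites, 52.47, on 3R from 886329 to 887382, was only the 81st of the Yki list and went with a GAF score of 41.31, inside the top quartile of the joint sites. On 3R from 17663005 to 17665323 a Yki score of 48.60 went with a GAF score of 17.05, below the median of the joint sites. On 2L from 10056804 to 10057713 a Yki score of 46.70 stood beside a GAF score of 7.39, with 37 bp shared between the peaks; it was the only site at H3K4me3 among the 23 named by score, rank or width. The highest GAF score, 297.64, on 3R from 14272774 to 14275111, went with a Yki score of 20.17, also in the top quartile, in a site 894 bp from a GAF embryo peak. It was followed by 195.83 on 2R from 8299541 to 8300653, with a Yki score of 10.96.

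The widest joint sites were broad GAF peaks with small Yki peaks, or chains of several peaks. On X, a GAF peak from 1453456 to 1457520 spanned the full 4065 bp of its site with 2 Yki peaks inside that covered 731 bp together. A joint site of 2435 bp followed it from 1459172 to 1461606, again with 2 Yki peaks inside a single GAF peak. These had GAF scores of 169.74 and 155.74. On 2L the site from 18945468 to 18948514 was instead mostly Yki, with 2628 bp under its Yki peaks and 1917 bp under GAF, and on 3L the site from 22172412 to 22174942 chained 3 Yki and 3 GAF peaks.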

How the data were processed

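Positions came from 5 deposited peak lists on the dm3 build, per the submitters' processing notes, which also name CASAVA 1.7.0, BWA and Bowtie. Peaks of the deposited disc lists are named after MACS, a peak caller; for the embryo lists the caller, and for all lists the thresholds, the pooling of replicates and the use of input, are not stated. The wing disc lists carry a score per peak, deposited by the authors with no stated scale. Starts are counted from 1 in the text.

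Peaks were merged with Python 3.11.15, numpy 2.4.6 and pandas 2.3.3. Shares have Wilson intervals and differences Newcombe intervals. Fisher's exact test (scipy 1.17.1, two-sided, Benjamini-Hochberg over 6 contrasts, threshold 0.05) set joint sites against 3 other classes, and Mantel-Haenszel odds ratios used statsmodels 0.14.6. Ratios of odds ratios have Wald intervals. Merging and contrasts were tested on simulated lists. Figures used matplotlib 3.10.9.

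The sites, classes and settings were chosen with earlier results of these data known. Named sites were those with the 10 best mean score ranks, the 5 highest scores per protein, the 5 widest, and the densest windows of 100 kb. Planned comparisons of transcription starts, sequence motifs and gene lists need an annotation or genome of the dm3 build and were not run here.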

Additional observations from a re-analysis of the deposited data

How the results depend on the processing

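The number of joint sites stayed between 712 and 807 under 5 of 6 other settings (100 bp required for merging, peaks within 100 or 500 bp merged as well, 50% of the narrower peak shared, X, 4 and scaffolds left out) and fell to 112 with the better-scoring 50% of each wing disc list. That setting removes most joint sites and moves sites that lose a weaker partner into the single-protein classes by construction. Under it the H3K4me3 odds ratio against GAF-alone sites turned to 0.544 and the X odds ratio against Yki-alone sites to 1.40 (0.777 to 2.54), and the X odds ratios of 0.615 against GAF-alone and 0.721 against embryo-shared sites no longer passed the test. With site midpoints inside H3K4me3, the odds ratio of 0.927 against embryo-shared sites and the ratio of odds ratios of 0.821 for the Yki score against Yki-alone sites did not pass either. The cause of these last changes was not tested. Of 25 alternative odds ratios for H3K4me3 23 kept their direction and side of the threshold, as did 16 of 19 for X. They covered overlap, width, score, merging, chromosomes and removal of sites under 1 kb from an embryo peak; quartiles of score and, for X, of width were added after the data were seen. No paired analysis was possible because the files hold a single list per antibody and tissue and no values per library, so no library could be left out either. Depth and replicate spread are unknown and limit every value.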
